A study of Saccharomyces cerevisiae with 13 samples.

Results

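These 100 genes were chosen for a lower mean in the first cell cycle after release from pheromone arrest than in the second, and for a small range in the second. They were the 100 rows, of 6148 named rows with a value on all 13 arrays, whose mean over the arrays from 70 to 120 min exceeded their mean over the arrays from 10 to 60 min by the most, among the 4931 rows whose range over 70 to 120 min was at most 0.4. The cells were budding yeast of strain W303 with the SSD1-V background, held in G1 by alpha factor, released into YEPD and harvested at 10 min steps from 0 to 120 min. The 13 times are groups of 1 array each, with the Cy5 cDNA of that time set against Cy3 cDNA from an untreated asynchronous W303a culture, whose SSD1 allele the labels do not state. All 13 come from what the labels describe as one released population, with no replicate and no dye swap. A p-value below therefore sets a fitted slope or oscillation against the scatter of these samples around the fit. It does not take in variation between cultures. Every value is a log ratio, taken as log2 of Cy5 over Cy3, so a negative value is a level below that of the asynchronous culture. The base and the direction are not stated. The direction is only likely, judged by the dyes and by 4.53 at 0 min for FIG1, a gene induced by mating pheromone; a turned ratio would turn every sign here.

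Alpha factor stops MATa cells in G1 while they go on growing, and release sends them through S phase and mitosis together. Most proteins of yeast mitochondria are encoded in the nucleus, including those of the mitochondrial ribosome, which makes a handful of respiratory chain subunits inside the organelle. Glucose, which YEPD supplies, represses respiration and the use of storage carbohydrate. A bulk ratio of this kind cannot tell fewer cells that hold a transcript from less of it per cell. If each array was centred, which the labels do not state, it also cannot tell a change in the culture from one in total RNA. The mean over rows was near 0 on every array, from -0.0028 at 10 min to -0.0012 at 70 min.

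Named rows had values for 6158 to 6166 rows per array, and the values spread most at 0 min, with an SD over rows of 0.39, and least at 100 min, with 0.24. Over all rows the lowest correlation between any pair of arrays was 0.227, between 40 and 70 min, and -0.641 once each row was centred on its own mean. The gene table held 95 of the 100 rows and lacked 5, and 10 of the 100 carry only an open reading frame name.

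The difference of the means of 70 to 120 min and 10 to 60 min, which chose the genes, had a median of 0.25, or 1.19-fold, and ran from 0.20 to 0.82. It was 0.5 or more for 3 genes and under 0.3 for 85. The desaturase gene OLE1 led with 1.76-fold. Relative to the asynchronous culture 46 had a mean above 0 in the second cycle and below 0 in the first, 28 were below 0 in both, and 26 were above 0 in both. Of all 6148 rows these were 506, 2512 and 2556, and the choice favours the first kind. On the arrays from 10 to 60 min the median over the genes was -0.085, -0.14, -0.21, -0.19, -0.075 and -0.02, and on those from 70 to 120 min it was 0.16, 0.095, 0.125, 0.09, 0.09 and 0.15. The lowest of these medians were those at 30 and 40 min. The step between 60 and 70 min lies at the border of the 2 windows that chose the genes, so nothing is read from it. Of the 100, 58 stood above the midpoint of their 2 means for good at 50, 60 or 70 min, 19 from 80 to 100 min and 23 later or not at all. Of all 6148 rows 32, 58 and 78 did so at 50, 60 and 70 min. The choice of a low first and a high, level second cycle bears on these counts, so nothing is read from them. In 16 genes every array of 70 to 120 min lay above every array of 10 to 60 min, as it did in 0.537% of all rows, a figure the choice of genes fixes.

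**Figure D1:**
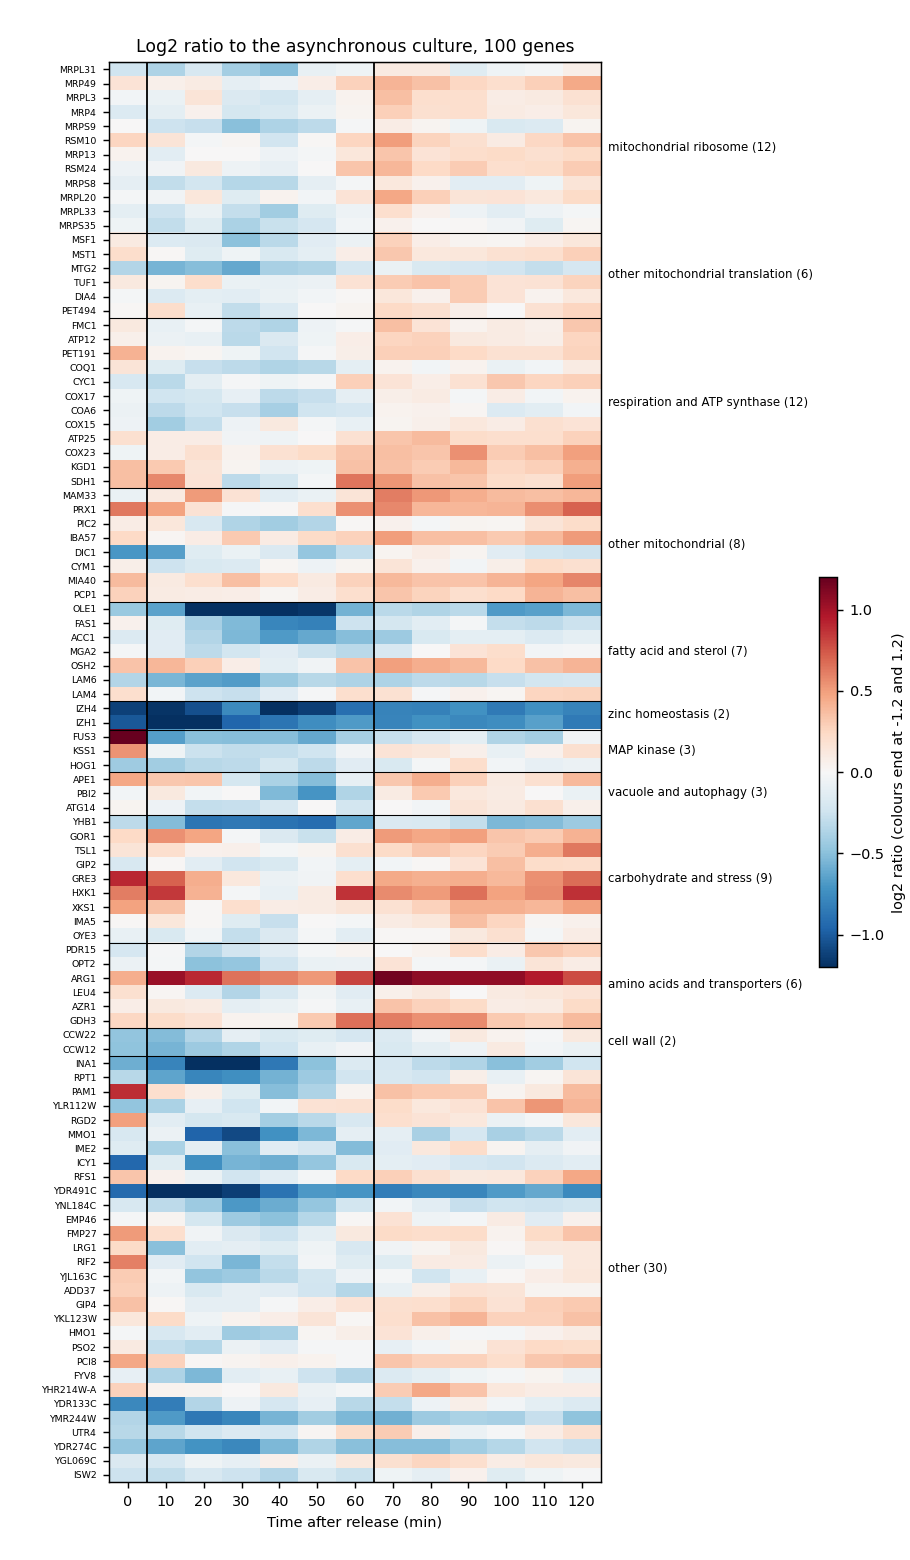
Log2 ratio of each of the 100 genes (rows, grouped by role) on the 13 arrays (columns, min after release); vertical lines separate the 0 min array, the 10 to 60 min arrays and the 70 to 120 min arrays. Most rows are bluest at 30 or 40 min and change little after 70 min, while the 0 min column holds both high and low values.

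By known roles, assigned after the members were seen, 38 of the 100 genes serve mitochondria, counted over 4 groups: 12 in the mitochondrial ribosome, 6 in other steps of mitochondrial translation, 12 in respiration and ATP synthase and 8 elsewhere. No share over all rows was counted for these roles. Of the 38, 30 had their lowest first-cycle value at 30 or 40 min, where 31.8% of all rows did, and 11 were among the 16 genes whose cycles did not overlap. Both counts rest on arrays that the choice used, and nothing is read from them.

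The mitochondrial ribosome gave the most members of any list of known genes. The proteins MRPL31, MRP49, MRPL3, MRP4, MRPS9, RSM10, MRP13, RSM24, MRPS8, MRPL20, MRPL33 and MRPS35 are 12 of 68 measured in the list, or 17.6%, where 1.63% of all rows are members. On the 13 arrays from 0 to 120 min their median was -0.04, -0.125, -0.01, -0.19, -0.225, -0.08, 0.035, 0.31, 0.175, 0.17, 0.095, 0.095 and 0.165. The low was small in each, with the rise between 0.20 and 0.28. MRPL31 (YKL138C), of the large subunit, stood at -0.24, -0.37, -0.19, -0.41, -0.51, -0.09, -0.05, 0.11, 0.11, -0.15, -0.05, -0.02 and 0.07 from 0 to 120 min. Its lowest value was at 40 min, and the cycles overlapped, since 90 min lay below 50 and 60 min. MRP49 (YKL167C), of the same subunit, had 0.16, 0.06, 0.10, -0.11, -0.06, 0.08, 0.28, 0.41, 0.35, 0.25, 0.20, 0.29 and 0.45, with overlap only at 60 min. MRP4 (YHL004W), of the small subunit, had -0.16, -0.12, 0.05, -0.21, -0.18, -0.07, 0.03, 0.29, 0.19, 0.20, 0.10, 0.08 and 0.14, and every array from 70 min on was above every array of the first cycle. For MRPL3 (YMR024W) the first cycle ran between -0.22 and 0.15 and the second between 0.09 and 0.36.

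Most of the mitochondrial ribosome list shared the sign of its members. Of the 68 rows, 64 had the higher mean in the second cycle, against 47.8% of all rows, and the median difference was 0.14, where the median over all rows was -0.005. This is the contrast that chose the 12, so nothing is read from it. Of the 56 that are not members, 17 varied by more than 0.4 in the second cycle. The choice did not use the slope from 10 to 60 min, but it used the mean of those arrays. In this slope 0 of the 68 rose and 0 fell by limma's moderated test with Benjamini-Hochberg adjustment. At an unadjusted p under 0.05 there were 14 positive and 0 negative slopes, where 7.45% of all rows were positive at that level and 8.99% negative. The median slope was 0.034 per 10 min, against 0.0089 over all rows. None of the 14 positive slopes belonged to the 12 members, whose lowest unadjusted p (limma) was 0.107, for MRPS8. The cytosolic ribosome had 0 members among 137 rows, with a median difference of 0.045. Its first-cycle slopes had a median of 0.036 per 10 min, close to that of the mitochondrial list, with 0 rising and 0 falling by limma's adjusted p, and 16 positive and 0 negative slopes at an unadjusted p under 0.05. Of the 137 rows, 105 had the higher mean in the second cycle. Nucleolar ribosome assembly had 0 among 65 rows, with a median difference of -0.10. No test compared these lists.

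Other steps of mitochondrial protein synthesis were represented by aminoacyl-tRNA synthetases, an elongation factor and a translational activator. MSF1 (YPR047W), the mitochondrial phenylalanyl-tRNA synthetase, had 0.11, -0.16, -0.17, -0.49, -0.32, -0.14, -0.07, 0.28, 0.08, 0.03, 0.02, 0.08 and 0.14 over the 13 arrays. Its cycles did not overlap, nor did those of MST1, the threonyl enzyme, and DIA4, a probable seryl enzyme, with rises of 0.28 and 0.22. The elongation factor TUF1 had its first-cycle low of -0.09 at 40 min, and the COX3 activator PET494 its low of -0.30 at 30 min. The ribosome assembly GTPase MTG2 stayed below 0 on every array, with a mean of -0.20 in the second cycle and -0.44 in the first.

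Among the respiration genes were several assembly factors. COX17, COX23, COX15, COA6 and PET191, which act in building cytochrome c oxidase, FMC1, ATP12 and ATP25, which act in building ATP synthase, and COQ1, the first enzyme of the ubiquinone side chain, were members. PET191 (YJR034W) had 0.42, 0.04, 0.02, -0.05, -0.23, -0.01, 0.07, 0.29, 0.29, 0.24, 0.18, 0.18 and 0.27, so that the 0 min array was its highest and the first cycle lay wholly below the second. The only member of the 40 measured rows of the respiratory chain list was CYC1 (YJR048W), cytochrome c, with -0.19, -0.32, -0.12, -0.01, -0.05, -0.01, 0.29, 0.16, 0.08, 0.18, 0.32, 0.26 and 0.29. CYC1 was lowest at 10 min and had its main step between 50 and 60 min. From the citric acid cycle came 2 of 21 rows. SDH1 (YKL148C), the flavoprotein of succinate dehydrogenase, had 0.36, 0.58, 0.16, -0.31, -0.21, -0.02, 0.64, 0.53, 0.35, 0.33, 0.22, 0.19 and 0.50, with as high a level at 10 and 60 min as later. Its difference of 0.21 was 0.12 without the 30 min array. KGD1 (YIL125W), of 2-oxoglutarate dehydrogenase, had 0.36, 0.31, 0.15, 0.03, -0.07, -0.05, 0.35, 0.35, 0.30, 0.39, 0.25, 0.29 and 0.43, a shallower course with its low at 40 min.

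The remaining mitochondrial genes were the matrix protein MAM33, the peroxiredoxin PRX1, the carriers PIC2 and DIC1, the iron-sulfur factor IBA57, the import receptor MIA40 and the proteases CYM1 and PCP1. MAM33 (YIL070C) had -0.08, 0.11, 0.51, 0.17, -0.13, -0.08, 0.15, 0.61, 0.52, 0.44, 0.38, 0.36 and 0.40. Its 20 min value lay within the range of the second cycle while the other first-cycle arrays lay below it. DIC1 (YLR348C), the dicarboxylate carrier, was low at 0 and 10 min, at -0.70 and -0.66, and lay between -0.46 and -0.08 up to 60 min and between -0.25 and 0.09 afterwards. PRX1 (YBL064C) stayed above 0 on all arrays but 30 min, where it stood at -0.01.

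**Figure D2:**
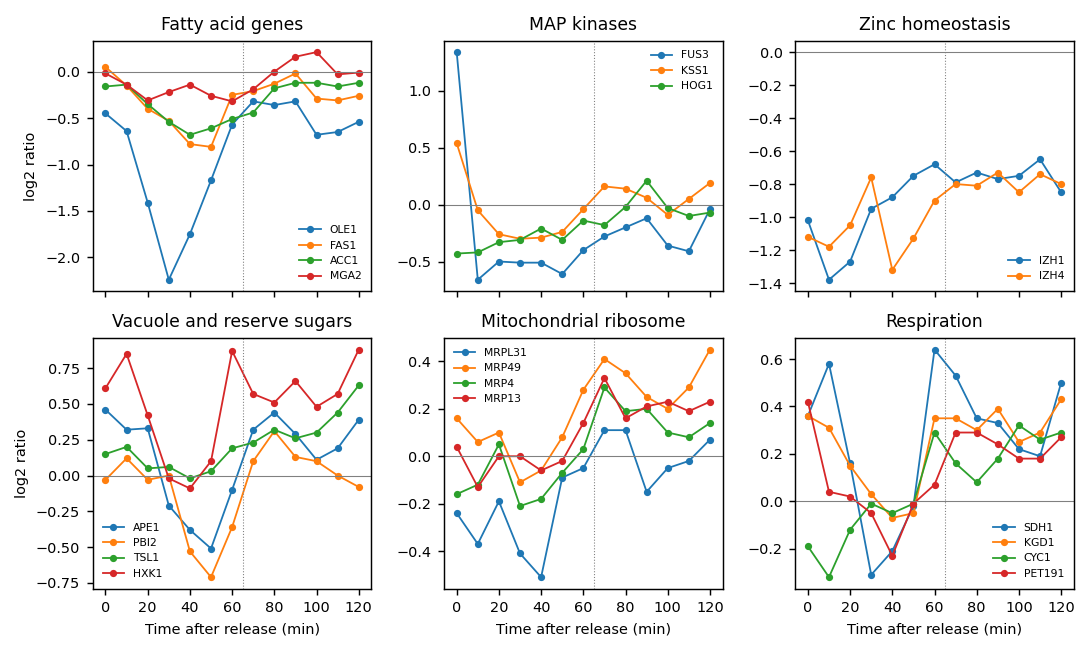
Log2 ratio (y axes, which differ between panels) over min after release (x axes) for members of 6 role groups, 1 line per gene; the dotted line separates the 2 cycles. OLE1 was at -2.24 at 30 min, FUS3 at 1.34 at 0 min, and the mitochondrial ribosome genes shown were higher at 70 min than at 50 min. These 2 arrays lie on either side of the border used by the choice, so nothing is read from that difference.

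Fatty acid synthesis held the gene of the largest rise. OLE1 (YGL055W), the delta-9 desaturase that makes unsaturated fatty acids, had -0.45, -0.64, -1.41, -2.24, -1.75, -1.17, -0.57, -0.32, -0.36, -0.32, -0.68, -0.65 and -0.54. It was below the asynchronous culture on every array, and the 0 min value lay within its range of the second cycle. FAS1 (YKL182W), a subunit of fatty acid synthase, had 0.05, -0.15, -0.40, -0.53, -0.78, -0.81, -0.25, -0.21, -0.13, -0.02, -0.29, -0.31 and -0.26. ACC1 (YNR016C), acetyl-CoA carboxylase, had -0.16, -0.14, -0.35, -0.54, -0.68, -0.61, -0.51, -0.44, -0.18, -0.12, -0.12, -0.16 and -0.12. The lows thus came at 30 min for OLE1, at 50 min for FAS1 and at 40 min for ACC1. FAS2, the other synthase subunit, had a difference of 0.23 but a range of 0.45 in the second cycle, just over the limit. MGA2 (YIR033W), a membrane-bound activator of OLE1 transcription, had means of 0.02 in the second cycle and -0.23 in the first. Its paralog SPT23, not a member, had -0.02 and -0.09. Of 23 measured rows in the phospholipid synthesis list, FAS1 and ACC1 were the members, and 0 rows of the list passed the slope test in either direction (7 falling and 0 rising at an unadjusted limma p under 0.05). Sterol-binding proteins LAM4, LAM6 and OSH2 were also members, with rises from 0.21 to 0.23.

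The membrane proteins IZH1 and IZH4, of a family tied to zinc homeostasis, were far below the asynchronous culture throughout. IZH1 (YDR492W) had -1.02, -1.38, -1.27, -0.95, -0.88, -0.75, -0.68, -0.79, -0.73, -0.77, -0.75, -0.65 and -0.85. IZH4 (YOL101C) had -1.12, -1.18, -1.05, -0.76, -1.32, -1.13, -0.90, -0.80, -0.81, -0.73, -0.85, -0.74 and -0.80. Each array of IZH1 from 10 to 60 min was higher than the one before, while IZH4 had its low at 40 min. The difference for IZH1 was 0.15 without the 10 min array, against 0.23 with it. The other two of the family, IZH2 and IZH3, had differences of 0.05 and -0.14 and were not members. In the zinc list as a whole, 1 of 16 rows was a member.

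The MAP kinase genes among the members differed from each other at 0 min. FUS3 (YBL016W), the mating MAP kinase, had 1.34, -0.66, -0.50, -0.51, -0.51, -0.61, -0.40, -0.28, -0.20, -0.12, -0.36, -0.41 and -0.04. The difference between its 0 and 10 min arrays exceeded the whole range of the later arrays, and the difference that made it a member was 0.30. KSS1 (YGR040W), its paralog in filamentous growth and mating, had 0.54, -0.05, -0.26, -0.30, -0.29, -0.24, -0.04, 0.16, 0.14, 0.06, -0.09, 0.05 and 0.19. HOG1 (YLR113W), the MAP kinase of the osmotic stress pathway, was not raised at 0 min: it had -0.43, -0.42, -0.33, -0.31, -0.21, -0.31, -0.14, -0.18, -0.02, 0.21, -0.03, -0.10 and -0.07. The cell wall MAP kinase gene SLT2, not a member, had a difference of 0.01. The pheromone list had 1 member among 33 rows, FUS3, and its median at 0 min was 1.85, where FUS3 stood below it.

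Vacuolar and storage sugar genes had their first-cycle lows at different times, from 20 min in ATG14 to 50 min in APE1 and PBI2. APE1 (YKL103C), a vacuolar aminopeptidase, had 0.46, 0.32, 0.33, -0.21, -0.38, -0.51, -0.10, 0.32, 0.44, 0.29, 0.11, 0.19 and 0.39. PBI2 (YNL015W), an inhibitor of vacuolar protease B, had -0.03, 0.12, -0.03, 0.00, -0.53, -0.71, -0.36, 0.10, 0.31, 0.13, 0.10, 0.00 and -0.08. Both were lowest at 50 min and level with their later values at 10 min. With ATG14, a subunit of the autophagy lipid kinase, they were 3 of 36 rows of the vacuole list. HXK1 (YFR053C), a hexokinase repressed by glucose, had 0.61, 0.85, 0.42, -0.02, -0.09, 0.10, 0.87, 0.57, 0.51, 0.66, 0.48, 0.57 and 0.88. Its rise was 0.26, or 0.17 without the 40 min array, and its 10 and 60 min values matched the highest of the second cycle. TSL1 (YML100W), of the trehalose synthase complex, had 0.15, 0.20, 0.05, 0.06, -0.02, 0.03, 0.19, 0.23, 0.32, 0.26, 0.30, 0.44 and 0.63. Unlike HXK1, TSL1 had its 2 highest values at 110 and 120 min, and its second-cycle range of 0.4 is the limit of the choice.

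Stress and redox genes covered several shapes. GRE3 (YHR104W), an aldose reductase, had 0.90, 0.71, 0.44, 0.13, -0.07, -0.04, 0.20, 0.45, 0.43, 0.44, 0.39, 0.55 and 0.67. Its low was at 40 min, and no later array reached the 0 min value. YHB1 (YGR234W), a flavohemoglobin that removes nitric oxide, had -0.31, -0.52, -0.88, -0.86, -0.89, -0.91, -0.62, -0.17, -0.18, -0.29, -0.54, -0.52 and -0.44, a plateau of lows from 20 to 50 min with a step between 60 and 70 min. That step lies at the border of the 2 windows that chose the genes, so nothing is read from it. GOR1 (YNL274C), glyoxylate reductase, had 0.55 at 10 min, a low of -0.27 at 50 min and values between 0.30 and 0.51 from 70 min on. GRE3 and PRX1 were 2 of 42 rows of the general stress list. Of heat shock and chaperone genes 0 of 27 rows were members. The other four of this group were GIP2, a phosphatase subunit tied to glycogen, the xylulokinase XKS1, the isomaltase IMA5 and the oxidoreductase OYE3, with differences between 0.20 and 0.27.

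ARG1 (YOL058W), argininosuccinate synthase, was the member with the highest mean in either cycle. It had 0.44, 1.04, 0.90, 0.65, 0.60, 0.52, 0.81, 1.16, 1.07, 1.06, 1.06, 0.95 and 0.78, so that its 10 min value lay within the range of its second cycle. LEU4, alpha-isopropylmalate synthase, had a rise of 0.24 and with ARG1 made 2 of 44 rows of the amino acid list. Transporter genes were PDR15 and AZR1 of the 24 multidrug rows and OPT2 of the 32 nitrogen rows, a list that also gave the glutamate dehydrogenase GDH3; their rises lay between 0.21 and 0.28. CCW12 (YLR110C), an abundant cell wall mannoprotein, had -0.48, -0.56, -0.44, -0.36, -0.24, -0.09, -0.04, -0.18, -0.12, -0.06, 0.11, -0.03 and -0.08, with the 50 and 60 min arrays already within its second-cycle range. The related wall protein gene CCW22 had a difference of 0.26.

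Of the 30 genes outside these roles, the largest rises were those of INA1, RPT1 and PAM1. INA1 (YLR413W) had -0.59, -0.79, -1.58, -1.36, -0.86, -0.49, -0.16, -0.20, -0.31, -0.36, -0.50, -0.42 and -0.24, with its low at 20 min and recovery by 60 min. RPT1 (YKL145W), an ATPase of the proteasome base, had -0.33, -0.63, -0.78, -0.74, -0.57, -0.44, -0.23, -0.19, -0.23, 0.07, -0.09, 0.02 and 0.15. The other 5 ATPases of the base had differences from -0.02 to 0.07, so the 0.52 of RPT1 was not shared by the genes whose products assemble with it, and 1 of 37 proteasome rows was a member. PAM1 (YDR251W) had 0.89, 0.20, 0.07, -0.15, -0.51, -0.37, 0.03, 0.35, 0.31, 0.30, 0.03, 0.12 and 0.38. MMO1 (YKL044W) reached -1.08 at 30 min and lay between -0.39 and -0.11 from 60 min on. IME2 (YJL106W), a meiosis kinase, had -0.15, -0.38, -0.11, -0.50, -0.14, -0.20, -0.52, -0.14, 0.13, 0.22, 0.03, -0.11 and -0.04. It was the 1 member of a list of 12 genes that mark alpha cells, diploid cells or meiosis, whose median at 0 min was -0.005. The remaining genes included PSO2, a nuclease of DNA crosslink repair, ISW2, a chromatin remodelling ATPase, EMP46, a cargo lectin of the early secretory pathway, and GIP4, a regulator of protein phosphatase 1, together with PCI8, ADD37, FYV8, RFS1, YJL163C, YNL184C, YMR244W, YDR274C, YKL123W, YHR214W-A and YGL069C. Differences in this group ran from 0.20 to 0.54.

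The 0 min array took no part in the choice, and its values lay on both sides of 0. The median was 0.005, with quartiles of -0.19 and 0.25, against a median of -0.02 over all rows, and 50 genes stood above 0 where 46% of all rows did. At 0 min 34 genes were above their own mean of the second cycle, 46 lay between their 2 means, and 20 were below the mean of the first cycle. Over all rows these shares were 47.7%, 8% and 52.9%, where a row whose first cycle was the higher can count in the first and the last. The choice of genes with a gap between the 2 means bears on all of these counts. At a log2 ratio of 1 or more there was 1 gene, FUS3, against 1.58% of all rows, and at -1 or less there were 2, IZH4 and IZH1, against 1.09%. The next highest were GRE3, PAM1, PRX1, HXK1 at 0.61 and RIF2, a telomere protein, at 0.60. The next lowest were ICY1 at -0.94, YDR491C at -0.93, YDR133C at -0.77 and DIC1. In ICY1 (YMR195W) the 0 min value was its lowest, and in the second cycle it stayed between -0.23 and -0.12.

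**Figure D3:**
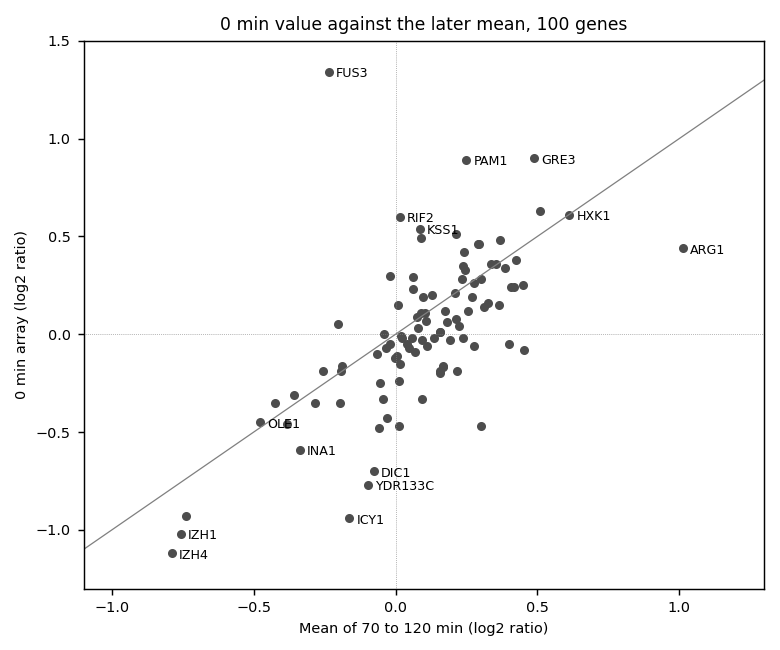
Value on the 0 min array (y axis) against the mean of 70 to 120 min (x axis), both log2 ratios, 1 point per gene; the solid line marks equal values. The 34 genes above the line, FUS3 farthest, were higher at 0 min than in the second cycle, and the genes below it were lower.

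A linear trend within the first cycle was tested as a slope over the 6 arrays from 10 to 60 min. A shift of all 6 alike leaves the slope unchanged. Their mean chose the genes, however, so the choice may still bear on the slopes. The test cannot show a fall followed by a rise, since its slope can be near 0 and its bend counts as error. In 57 genes the low was at 30 or 40 min, inside this window, against 31.8% of all rows. This count comes from arrays whose mean chose the genes. By limma's moderated test, adjusted over all rows tested, 0 of the 100 had a rising slope, against 0.114% of all rows. A falling slope was found in 0, against 0.195%. At an unadjusted p under 0.05 there were 11 rising and 5 falling, against 7.45% and 8.99% of all rows. The median slope was 0.015 per 10 min with quartiles of -0.014 and 0.045, against 0.0089 over all rows. The steepest climbs were 0.198 ± 0.077 for INA1 (adjusted p = 0.26, limma), 0.153 ± 0.024 for YDR491C (adjusted p = 0.059, limma) and 0.147 ± 0.024 for IZH1 (adjusted p = 0.064, limma), with the standard error of the fit. YLR112W, CCW12 and UTR4 followed with 0.109, 0.108 and 0.0997. The steepest descents were -0.142 ± 0.044 for PBI2 (adjusted p = 0.185, limma), -0.137 for APE1, -0.133 for GOR1, -0.120 for GRE3, -0.079 for ACC1 and -0.072 for PAM1. Without the 60 min array 2 genes rose, IZH1 and YDR491C, and 5 fell, where 52 of all rows rose and 152 fell. Without the 10 min array 2 rose, where 64 of all rows did. In simulated tables of this size, 59 of 100 slopes of 0.1 and 4 of 100 slopes of 0.05 were recovered. The simulated noise was independent between arrays, set at a fraction of each row's own SD, and held no oscillation. In the real rows an oscillation adds to the error of the slope, so these figures do not give the share detectable here. Even in the simulation few slopes of 0.05 were recovered, and the median slope of these genes was 0.015.

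The choice limited the range only in the second cycle, and a part of the genes passed a test for oscillation in the first. The 6 arrays span a single period, so a single dip after release can pass as a cycle does. A 60 min oscillation over 10 to 60 min passed limma's moderated F test in 20 of 100 genes, against 16.7% of all rows and 8.78% of the 4931 rows with a second-cycle range of at most 0.4, from which the genes were drawn. The mean of the same 6 arrays chose the genes. A deep low both lowers that mean and can pass the test, so the choice may favour this share. Among the 100 rows at the other end of the same ranking 22 passed. The difference in share was not tested. Fewer passed, 10, 10 and 11 genes, when the arrays of 30, 40 or 50 min were left out in turn, and 13 passed with the 0 min array added. Over all rows the same fits passed 533, 640 and 650 rows, and 558 with the 0 min array, where 1025 passed on the 6 arrays. OLE1 had a fitted swing, from trough to peak, of 1.64 ± 0.14 (adjusted p = 2.6e-04, limma), INA1 1.32 ± 0.15, HXK1 1.08 ± 0.13, MMO1 1.02 ± 0.17 and SDH1 1.01 ± 0.12. In the second cycle the fitted swings of these 5 lay between 0.20 and 0.40. APE1, GOR1, PBI2, GRE3, PAM1, FAS1, PRX1 and ARG1 also passed, with swings from 0.49 to 0.89. ACC1 (adjusted p = 0.052, limma) and RPT1 (adjusted p = 0.051, limma) did not, nor did any of the 12 mitochondrial ribosome genes. To call the genes weakly cycling therefore rests on their second cycle, by choice, and nothing about the first follows from it. The 100 genes had a median first-cycle swing of 0.33, against 0.28 over all rows.

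The time of the first-cycle low comes from arrays whose mean chose the genes, and it is given as a description. The lowest of the 6 first-cycle arrays was that at 30 or 40 min in 57 genes, against 31.8% of all rows and 32.8% of the rows from which they were drawn, and that at 60 min in 4, against 15% of all rows. It was the 10 min array in 19 genes, against 26.8%, the 20 min array in 13, against 16.6%, the 30 min array in 27, against 18.7%, the 40 min array in 30, against 13.2%, and the 50 min array in 7, against 9.71%. Of the 20 genes that passed as oscillating, 16 had a fitted peak between 0 and 15 min, modulo 60, as did 24.0% of all rows that passed. The fitted peaks of the 2 cycles lay within 10 min of each other in 69 genes, against 62.2% of all rows. These are counts over genes of the same arrays, given without a test.

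**Figure D4:**
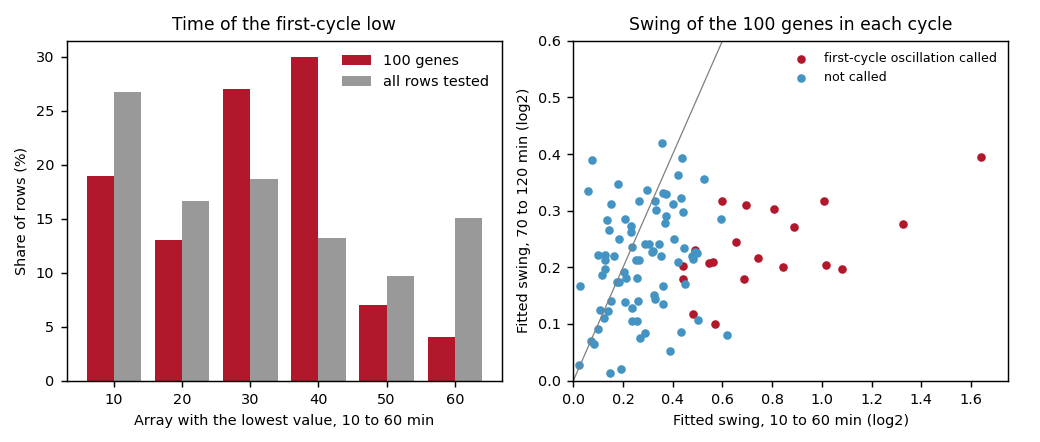
Left, share of the 100 genes (red) and of all rows tested (grey) whose lowest value of the first cycle fell on each array (min after release). Right, fitted 60 min swing (log2) in the second cycle against the first, 1 point per gene, red where the first-cycle oscillation passed; the line marks equal swings. In 77 genes the swing was smaller in the second cycle, which the choice favours.

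Some members lie next to each other. By open reading frame number 18 of the 100 rows are in 9 pairs of neighbours, against 10 rows in 5 pairs among the 100 rows at the other end of the same ranking. Both sets were selected, and no share over all rows was counted, so whether 9 pairs is many for 100 rows is not known. The closest courses were those of YDR491C and IZH1, with a Pearson r of 0.95 over the 13 arrays, and of YDR133C and CCW22, with 0.90. In each of these pairs 1 row is an open reading frame that the gene table does not list. CCW12 and YLR112W, separated by 1 open reading frame number, had an r of 0.90, and YLR112W and the adjoining HOG1 0.71. For the neighbours RIF2 and FMP27, which are transcribed away from each other, r was 0.81, and for HMO1, a high mobility group protein of ribosomal DNA, and RSM24, 0.78. MAM33 and PCI8 had 0.24. Every member was chosen for a low first and a high second cycle, which can raise r over the 13 arrays. Over the first-cycle arrays alone r was 0.96 for YDR491C and IZH1, 0.96 for YDR133C and CCW22 and 0.94 for CCW12 and YLR112W. It was 0.75 for HMO1 and RSM24, 0.74 for YLR112W and HOG1, 0.47 for RIF2 and FMP27 and -0.18 for MAM33 and PCI8. No r is given for members that are not neighbours, so nothing about neighbours is read from these values. Without probe sequences or strand, rows of overlapping genes cannot be told apart, and the members of such pairs are not separate observations. The difference for YDR133C was 0.11 without the 10 min array, against 0.21 with it.

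The 100 rows at the other end of the ranking, with a median difference of -0.27, give a side by side view. In the 10 to 60 min slope 4 of them fell and 0 rose, and 29 fell and 2 rose at an unadjusted limma p under 0.05. Their median at 0 min was 0.105, with 13 rows at 1 or more. Of them 22 passed as oscillating in the first cycle, and 11 had their first-cycle low at 30 or 40 min. The difference between both ends was not tested.

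The limit of the choice is arbitrary in size. The last places were tied: MRPS35, ISW2 and OYE3 entered and ISA2, an iron-sulfur protein, did not, all with a difference of 0.203, and the tie was settled by their order in the table. FMP10 followed with 0.202. Leaving out each of the 12 arrays in turn and choosing again kept 69 to 88 of the 100, and 46 were kept each time, among them OLE1, INA1, RPT1, FUS3 and 5 of the 12 mitochondrial ribosome genes. Without the 70 min array 6 rows of the mitochondrial ribosome list were chosen, 7 without the 10 min array and 8 without the 40 min array, against 12 with all arrays.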

How the data were processed

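Each sample was hybridised to a 2-colour array, Cy5 for the time point and Cy3 for the asynchronous culture, per the labels. The deposited values are log ratios, read here as log2 and used as the authors deposited them. The labels name no scanner, background correction or normalization, and no spot intensities were used, so signal over background is unknown. Of 6295 rows, 20 had no readable name and 127 named rows lacked a value; 6148 were analysed. Gene symbols were looked up in RefSeq's annotation of R64, where 5652 rows were found by locus tag, 40 by synonym and 456 not at all.

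Slopes and 60 min oscillations over 10 to 60 min were fitted to all rows with limma 3.58.1 in R 4.3.3 (lmFit, eBayes), adjusted by Benjamini-Hochberg and called at an adjusted p under 0.05; both were tested on simulated data. Figures used matplotlib 3.10.9 in Python 3.11.15.

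The members and gene lists were chosen with earlier results of these data known, and role groups after the members were seen. One result on members of a signalling class is not reported here. The rule for named genes took the 12 largest differences, the 6 largest and 6 smallest slopes, the 6 highest and 6 lowest 0 min values, up to 3 members of each list with at least 2, and ranks 100 and 101; others named were picked after their values were seen. Alternatives covered array centring, quantile and scale normalization, arrays left out or added, averaged rows, the terms of the fit and the noise model.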

Additional observations from a re-analysis of the deposited data

How the results depend on the processing

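No array was replicated, so no paired analysis was possible because each time point is a single sample. Single arrays decided many counts. Leaving out 1 array of 10 to 60 min gave 0 to 2 rising and 0 to 5 falling genes among the 100, 0 to 64 rising and 4 to 152 falling over all rows, and 10 to 22 oscillating genes among the 100, 533 to 1077 over all rows. Over all rows, where 7 rose and 12 fell, quantile normalization gave 4 and 7, added cosine and sine terms gave 45 and 58, and an estimated correlation between neighbouring arrays, of 0.102, gave 3 rising. Adding the 0 min array left 13 oscillating genes of the 100 and 558 over all rows, where 20 and 1025 passed. On the 0 min array quantile normalization left 0 genes at 1 or more and 0 at -1 or less, and scaling left 1 at -1 or less. A range of at most 0.3 kept 66 of the 100 genes and one of at most 0.5 kept 75. Quantile normalization kept 71, medians in place of means 73, and subtracting array medians 99. The slope of PAM1, which did not pass, turned to 0.026 with cosine and sine terms added. The median rise ran from 0.23 to 0.28 over all its alternatives. The cause of these changes was not tested.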
